A study of Rattus norvegicus with 6 samples.

Results

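A set of 8 genes was followed in cultured rat spinal cord astrocytes, with and without a mutant human transgene of a ninth gene, SOD1. Mutations in these genes cause or raise the risk of amyotrophic lateral sclerosis (ALS), the degeneration of motor neurons. The 8 genes were Tardbp, Matr3, Atxn2, Sqstm1, Optn, Tbk1, Vcp and Vapb, chosen by name from 14217 genes with a single symbol in the annotation of the array. They were read by 17 probe sets, which are groups of oligonucleotides against one transcript sequence, and the rule took every probe set whose symbol is one of the 8. The 6 arrays held 3 samples of SOD1-G93A astrocytes, from transgenic hSOD1G93A rats that carry human superoxide dismutase 1 with the G93A substitution, and 3 samples of NonTG astrocytes without the transgene. Each group has samples A, B and C, and both groups were grown to confluent monolayers and kept in the same supplemented L15 medium for a day before RNA isolation. The promoter of the transgene, the age of the rats and the number of animals or cultures behind a sample are not given in the sources used here.

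The proteins of these genes meet in a few cellular tasks. TDP-43 (from Tardbp) and matrin 3 bind RNA in the nucleus and regulate splicing, and ataxin 2 binds RNA in the cytoplasm and in stress granules. The protein p62 (from Sqstm1) and optineurin carry ubiquitin-tagged cargo into autophagosomes, the kinase Tbk1 phosphorylates both of them, the ATPase Vcp pulls ubiquitinated proteins out of membranes and complexes, and Vapb tethers the endoplasmic reticulum to other organelles. In patients, aggregates of TDP-43 are found in most forms of ALS, while disease with SOD1 mutations usually lacks them.

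No change of any of the 8 genes was detected in SOD1-G93A astrocytes. Of the 17 probe sets, 16 were bright enough to be tested, and limma called 0 of 16 at an adjusted p of 0.05, where it called 0% of all 18625 probe sets tested. At an unadjusted p below 0.05 there were again 0 of 16, against 2.54% of all probe sets, and the smallest unadjusted p among the members was 0.172. The adjusted p was 0.9997 for each of the 16. The members' log2 differences, taken as SOD1-G93A minus NonTG throughout, lay between -0.56 and 0.19, with 7 above and 9 below 0 and a median of -0.018, beside a median of 0.0070 over all probe sets tested. The median standard error (SE) of the members was 0.114, beside 0.159 over all probe sets.

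**Figure D1:**
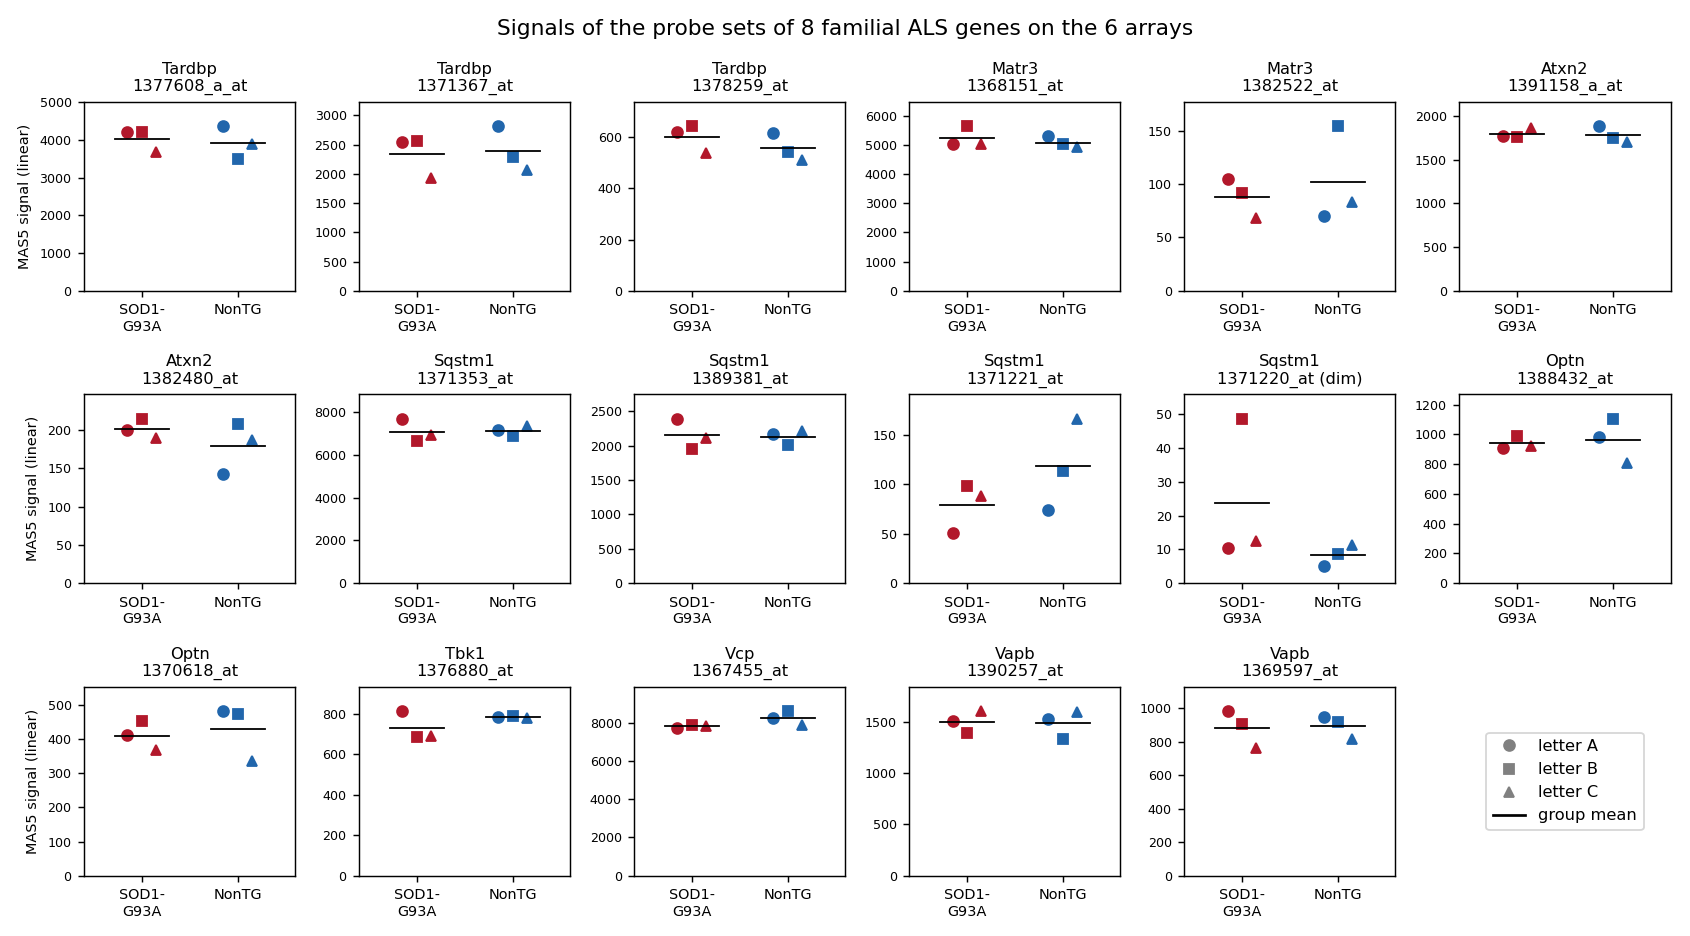
Signals of the 17 probe sets of the 8 ALS genes on each array, on a linear axis that starts at 0, with SOD1-G93A left and NonTG right; the symbol shows the sample letter and the line the group mean. In 16 of the 17 panels the groups overlap, and in the Vcp panel the 3 SOD1-G93A signals (7738 to 7886) sit just below the 3 NonTG signals (7890 to 8577).

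The intervals set a bound on the changes that could have been missed, as far as the spread among these samples goes. For 6 of the 16 members the 95% confidence interval of the ratio of SOD1-G93A to NonTG stayed inside 1.2-fold up and down, as it did for 10.9% of all probe sets. It lay within 1.5-fold for 13 of 16 (63.6% of all) and within 2-fold for 15 of 16 (90.8% of all). Each of the 8 genes had at least 1 probe set with an interval inside 1.5-fold. The 3 probe sets outside that bound were a second one each for Matr3 and Atxn2 and the third of Sqstm1, which had the lowest signals among those tested. An adjusted p above the threshold does not show that the groups are alike, and a permutation test of 3 arrays against 3 could not fall below 0.1. The labels do not state whether the 3 samples of a group are separate cultures or animals. The p-values and intervals therefore refer to the spread among these samples, which could be technical.

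**Figure D2:**
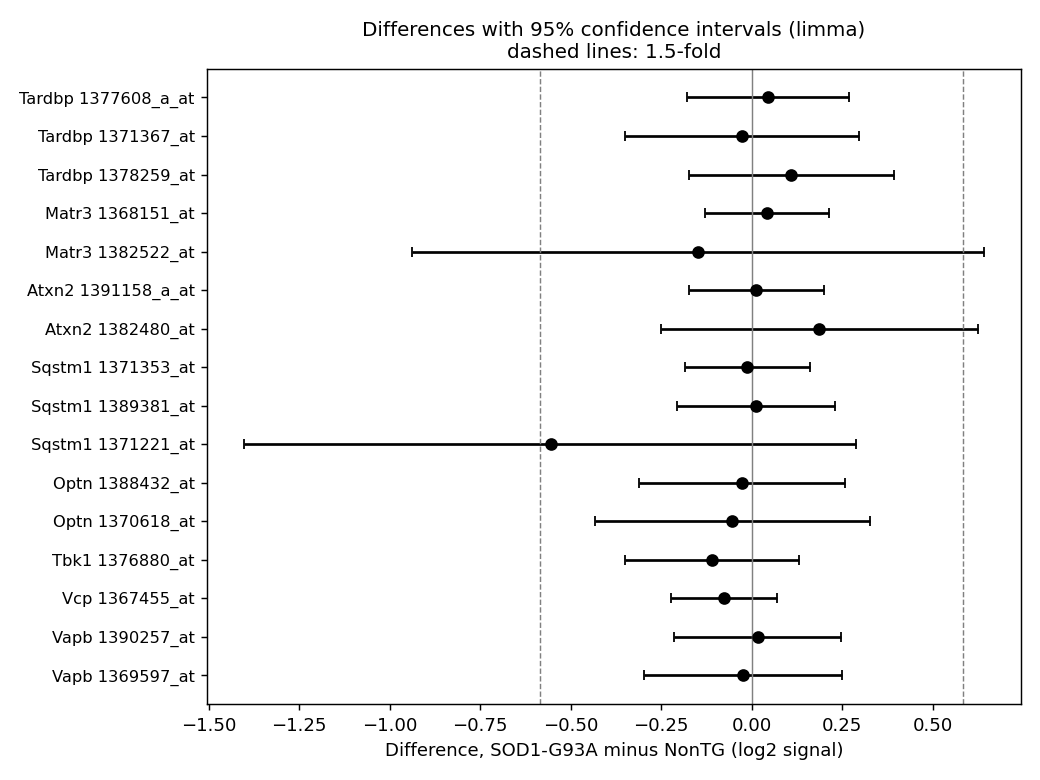
Differences between SOD1-G93A and NonTG for the 16 tested probe sets (points, log2 signal) with limma's 95% confidence intervals (bars) and dashed lines at 1.5-fold. All intervals span 0, and the widest is that of Sqstm1 1371221_at, which runs between -1.40 and 0.29.

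The same arrays were read for marker genes of the astrocyte and of cells a culture could also hold. The median signal per array was 129.88 to 136.28 in SOD1-G93A and 128.85 to 135.28 in NonTG. Of 11 astrocyte markers 10 were tested, with a summed signal of 97980 to 116400 in SOD1-G93A and 104200 to 117700 in NonTG. Their differences were above 0 for 5 and below 0 for 5. Slc1a2 (0.47, SE 0.23), with signals of 79.49 to 143.3, was higher without overlap. Of 12 microglia and macrophage markers 2 were above the dim level of 66.7. Oligodendrocyte markers summed to 5572 to 7566 in SOD1-G93A and 5135 to 5741 in NonTG, with 5 of 6 tested above 0 and a median difference of 0.44. Among them Ugt8 (0.72, SE 0.27) and Mag (0.63, SE 0.27) were higher without overlap, Mbp was at 0.78 (SE 0.46) and the bright Cnp at -0.18 (SE 0.10). Signals ran from 58.25 to 115.4 for Ugt8 and from 78.05 to 196.6 for Mag, close to the dim level. Pdgfra (0.25, SE 0.20) and the bright Olig1 (0.13, SE 0.15) were above 0 with overlap. Fibroblast and meningeal markers summed to 45100 to 62270 in SOD1-G93A and 60460 to 61530 in NonTG, with 5 of 8 below 0. Dcn (2.52, SE 0.32, limma's adjusted p = 0.4004) and Aldh1a2 (1.147, SE 0.23) were higher without overlap, and Lum (1.08, SE 0.73) was above 0 with overlap. Col1a2 (-0.12, SE 0.065) was lower without overlap. Postn (-0.37, SE 0.21), Col1a1 (-0.18, SE 0.14), Col3a1 (-0.23, SE 0.20) and Pdgfrb (-0.091, SE 0.28) were below 0 with overlap. Over all genes, the groups did not overlap for 3.73% with SOD1-G93A higher and for 3.79% with it lower. Neuron markers summed to 4417 to 5171 in SOD1-G93A and 4260 to 4797 in NonTG, with 4 of 9 above 0. Those of pericytes and smooth muscle summed to 17210 to 28320 in SOD1-G93A and 23090 to 28720 in NonTG, with 0 of 5 above 0 and a median of -0.30. Whether such cells contributed to the values that follow was not tested, and in bulk samples fewer cells of a type and less RNA per cell cannot be told apart. The rat Sod1 probe set (1367641_at) gave 9781, 10860 and 10510 in SOD1-G93A against 8982, 8855 and 9430 in NonTG. The difference was 0.19 (SE 0.069, limma's adjusted p = 0.9997), higher without overlap, as for 3.73% of all genes. It was designed for the rat transcript, so it does not check the human transgene.

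Tardbp encodes TDP-43, a nuclear protein that represses cryptic exons and regulates its own transcript. Its 3 probe sets showed no call and did not share a direction. The brightest, 1377608_a_at, whose suffix marks a design against several transcripts of one gene, gave 4213, 4207 and 3679 in SOD1-G93A A, B and C against 4357, 3498 and 3892 in NonTG A, B and C. The groups overlapped, since NonTG held both the highest and the lowest signal. Its difference was 0.045 (SE 0.099, 95% interval -0.18 to 0.27), a ratio of 1.03. The sign turned to -0.033 when NonTG B was left out.

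A second Tardbp probe set, 1371367_at, gave 2540, 2564 and 1929 in SOD1-G93A against 2812, 2284 and 2069 in NonTG. The lowest signal of either group was that of sample C, and the groups overlapped. The difference was -0.027 (SE 0.14, interval -0.35 to 0.30), which turned to 0.097 with NonTG A left out and to 0.11 with SOD1-G93A C left out. The third, 1378259_at, gave 619.5, 642.2 and 539.8 in SOD1-G93A against 618.1, 543.4 and 509.5 in NonTG, again lowest in C in both groups. Its difference of 0.11 (SE 0.13, interval -0.17 to 0.39) was above 0 within each letter, at 0.0032 for A, 0.24 for B and 0.083 for C. Its sign was the same under every alternative run, but its size moved to 0.047 without NonTG C, 0.059 without SOD1-G93A B, 0.18 without SOD1-G93A C and 0.19 without NonTG A.

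The promoter of Tardbp is shown because it shares a short motif with that of Tbk1, another of the 8 genes. The window reads 5′ to 3′ on the gene's strand, credited to RefSeq (GRCr8), chr5:164345389-164345454, minus strand. The capitals mark CACGTG, the E-box bound by factors such as Usf1, Myc and the lysosomal regulators Tfeb and Tfe3, which lies 220 to 215 bases before the transcript start.
Tardbp: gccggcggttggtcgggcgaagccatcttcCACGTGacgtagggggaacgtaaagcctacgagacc
All 8 genes were matched by symbol to the table of promoters, each 250 bases before and 50 after the start. CACGTG, which reads the same on both strands, occurred in 2 of the 8 (Tardbp and Tbk1) and in 6.42% of all 33469 rat promoters in the table. The match is a description of these letters and not a site. All 8 promoters were rich in G and C, with 58% (Vcp) to 82.7% (Atxn2), beside a median of 51.7% over all promoters. They held 23 to 60 CG pairs, beside a median of 7. CACGTG itself holds a CG, so the share over all promoters is not matched to these 8 in composition.

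Matr3 encodes matrin 3, an RNA- and DNA-binding protein of the nuclear matrix that represses exons and can be found with TDP-43. The bright probe set, 1368151_at, gave 5051, 5636 and 5028 in SOD1-G93A against 5294, 5028 and 4916 in NonTG. Only the B sample of SOD1-G93A lay above all NonTG signals, and the groups overlapped. The difference was 0.043 (SE 0.076, interval -0.13 to 0.21), one of the tighter estimates, and it became -0.011 without SOD1-G93A B. The second, 1382522_at, was close to the dim level, at 104.9, 91.9 and 67.9 in SOD1-G93A against 69.9, 153.9 and 82.9 in NonTG. Within the letters it differed by 0.59, -0.74 and -0.29 for A, B and C, so that its difference of -0.15 (SE 0.35, interval -0.94 to 0.64) has little precision. It was 0.19 without NonTG B and 0.029 without SOD1-G93A C.

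Atxn2 encodes ataxin 2, which binds poly(A)-binding protein. In humans, polyglutamine stretches of intermediate length in it raise the risk of ALS. Its probe set 1391158_a_at gave 1772, 1756 and 1859 in SOD1-G93A against 1881, 1750 and 1709 in NonTG. The SOD1-G93A range lay inside that of NonTG, and the difference was 0.013 (SE 0.083, interval -0.17 to 0.20), or -0.016 without NonTG C and -0.012 without SOD1-G93A C. The second probe set, 1382480_at, gave 200.1, 214.7 and 190.4 in SOD1-G93A against 142.6, 208.2 and 186.8 in NonTG. NonTG A was the low sample. The difference of 0.19 (SE 0.19, interval -0.25 to 0.63), the highest of the 16, was 0.031 without that array and 0.30 without NonTG B, above 0 in both cases.

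Sqstm1 encodes p62, an autophagy receptor that also holds Keap1 and so links to the antioxidant factor Nrf2, of which Sqstm1 is itself a target. It was read by 4 probe sets. The brightest, 1371353_at, gave 7680, 6649 and 6926 in SOD1-G93A against 7171, 6869 and 7361 in NonTG, and 1389381_at gave 2386, 1951 and 2106 against 2169, 2002 and 2206. In both probe sets SOD1-G93A A was the highest and SOD1-G93A B the lowest of the 6 arrays, and the groups overlapped. The difference was -0.012 (SE 0.076, interval -0.18 to 0.16) for the first, with a sign that turned under quantile normalization (0.027) and without NonTG C (0.011), SOD1-G93A B (0.032) or SOD1-G93A C (0.0031). It was 0.011 (SE 0.097, interval -0.21 to 0.23) for the second, and -0.031 without NonTG B and -0.067 without SOD1-G93A A.

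The other Sqstm1 probe sets were dim. That named 1371221_at gave 51.0, 97.8 and 88.2 in SOD1-G93A against 74.3, 113.4 and 165.7 in NonTG. The SOD1-G93A sample was the lower one within A (-0.54), B (-0.21) and C (-0.91), although the groups overlapped, and A was the lowest in both. Its difference of -0.56 (SE 0.38, interval -1.40 to 0.29) was the largest in size among the 16 and had an unadjusted p of 0.172 in limma, or 0.0774 with the letter as a block (adjusted p = 0.857). With a pseudocount of 32 it was -0.41, and its sign was the same under every alternative run. Its size moved with single arrays, to -0.85 without NonTG A, -0.27 without NonTG C and -0.27 without SOD1-G93A A. The bright probe sets of the same gene, at -0.012 and 0.011, did not show it. The last, 1371220_at, was left out of the tests as dim. Its signals were 10.4, 48.6 and 12.6 in SOD1-G93A against 5.18, 8.54 and 11.4 in NonTG, all under the dim level of 66.7, so no ratio is given.

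The search for TGACNNNGC on both strands, the core of the antioxidant response element bound by Nrf2, found it in 1 of the 8 promoters (Vcp) and in 12.1% of all promoters. The Sqstm1 window did not hold these letters, from which nothing follows about Nrf2.

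Optn encodes optineurin, an adaptor for ubiquitin chains that brings Tbk1 to damaged mitochondria and restrains NF-kB signalling. In humans, OPTN is itself induced by NF-kB. Its probe set 1388432_at gave 905.4, 987.2 and 922.8 in SOD1-G93A against 979.2, 1103 and 807.6 in NonTG. The NonTG signals lay on both sides of the SOD1-G93A ones, with an SD of 148.5 around 963.4 against 43.1 around 938.5 in SOD1-G93A (n = 3 each). The difference was -0.027 (SE 0.13, interval -0.31 to 0.26), and 0.077 without NonTG B. The second probe set, 1370618_at, gave 410.6, 451.5 and 366.6 in SOD1-G93A against 480.3, 471.5 and 335.6 in NonTG, with the lowest signal in C in both groups. Its difference was -0.054 (SE 0.17, interval -0.43 to 0.33). It changed sign without NonTG A (0.037), NonTG B (0.024) or SOD1-G93A C (0.024). Within the letters both probe sets were below 0 for A (-0.11 and -0.23) and B (-0.16 and -0.063) and above 0 for C (0.19 and 0.13).

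The Optn promoter is shown because it was the one promoter of the 8 that held GGGANNTTCC, a form of the site bound by NF-kB. The window is chr17:78118619-78118918, plus strand, GRCr8, credited to RefSeq, with the motif in capitals, 22 to 12 bases before the start.
Optn: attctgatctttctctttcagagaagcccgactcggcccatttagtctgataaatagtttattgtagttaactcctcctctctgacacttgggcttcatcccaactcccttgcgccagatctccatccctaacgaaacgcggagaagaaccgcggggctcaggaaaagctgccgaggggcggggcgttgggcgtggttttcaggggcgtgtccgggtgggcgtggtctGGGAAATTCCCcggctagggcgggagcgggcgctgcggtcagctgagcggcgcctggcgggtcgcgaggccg
The capitals span a match on each strand, and the 2 matches overlap. The motif, searched on both strands, was present in 1.3% of all promoters.

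Tbk1 encodes the kinase that phosphorylates optineurin and p62 in autophagy and the transcription factor Irf3 in innate immunity. Its probe set, 1376880_at, gave 810.8, 687.3 and 690.8 in SOD1-G93A against 784.9, 790.4 and 779.6 in NonTG. The NonTG signals were nearly equal, with an SD of 5.37 around 785 (n = 3), while SOD1-G93A had 1 sample above and 2 below all of them, with an SD of 70.3 around 729.6 (n = 3). The difference was -0.11 (SE 0.11, interval -0.35 to 0.13), a ratio of 0.927. It was 0.047 within A, -0.20 within B and -0.17 within C, and stayed below 0 under every alternative run, between -0.19 with SOD1-G93A A left out and -0.069 with SOD1-G93A B left out.

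The E-box of the Tbk1 promoter lies 55 to 50 bases before the start, in chr7:58996377-58996442, minus strand, GRCr8, credited to RefSeq, with CACGTG in capitals.
Tbk1: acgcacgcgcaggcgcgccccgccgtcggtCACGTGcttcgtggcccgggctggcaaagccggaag

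Vcp encodes the hexameric ATPase also called p97, which works in degradation from the endoplasmic reticulum and in autophagy. Its probe set, 1367455_at, gave 7738, 7886 and 7809 in SOD1-G93A against 8243, 8577 and 7890 in NonTG. It was the one member whose groups did not overlap, with the highest SOD1-G93A signal just under the lowest NonTG signal. Non-overlap with SOD1-G93A lower was found for 1 of the 16 members, and for 3.51% of all probe sets. The means were 7811 ± 74 in SOD1-G93A and 8237 ± 344 in NonTG (SD, n = 3 each), a ratio of 0.949. The difference was -0.076 (SE 0.065, interval -0.22 to 0.071), with an unadjusted p of 0.274 in limma's fit. It was below 0 within A (-0.091), B (-0.12) and C (-0.015) and stayed below 0 under every alternative run, between -0.11 and -0.037.

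Vapb encodes a protein of the endoplasmic reticulum membrane that binds partners on other organelles through their FFAT motifs. Its probe set 1390257_at gave 1507, 1396 and 1601 in SOD1-G93A against 1532, 1328 and 1598 in NonTG, with the same order of the letters in both groups. The difference was 0.017 (SE 0.10, interval -0.21 to 0.25), or -0.062 without NonTG B and -0.030 without SOD1-G93A C. The second, 1369597_at, gave 981.6, 904.5 and 763.3 in SOD1-G93A against 948.5, 916.2 and 818.5 in NonTG. Here A was highest and C lowest in both groups, and the difference was -0.023 (SE 0.12, interval -0.30 to 0.25), or 0.020 when NonTG A was left out and 0.078 when SOD1-G93A C was. Vapa, the paralogue of Vapb (1398843_at, named after its values were seen), gave 10730, 10650 and 10640 in SOD1-G93A against 11340, 11120 and 10940 in NonTG. The Vapa groups did not overlap, and the difference was -0.061 (SE 0.060, limma's adjusted p = 0.9997).

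Arrays of the same letter were also set against each other, although the labels do not state what the letters stand for. Same-letter samples deviated together only weakly, with correlations of 0.20 to 0.30. The sign was the same within A, B and C for 4 of the 16 members, and for 25.8% of all probe sets. These 4 were Tardbp 1378259_at and Atxn2 1382480_at on the higher side and Sqstm1 1371221_at and Vcp on the lower side. With the letter as a block limma called 0 of the 16 (smallest adjusted p = 0.857), 0 of them at an unadjusted p below 0.05 beside 5.85% of all probe sets (0% after adjustment).

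The letters were also compared with each other, after the data were seen, by limma's F-test for the letter in the fit that holds the transgene too. Over all probe sets 195 of 18625 (1.05%) passed at an adjusted p of 0.05, and 15.6% had an unadjusted p below 0.05. Of the 16 members 0 passed, and 2 had an unadjusted p below 0.05. For Tardbp 1371367_at that p was 0.00709 (adjusted p = 0.158 in limma), with mean log2 signals of 11.38, 11.24 and 10.96 in A, B and C. For Sqstm1 1371221_at it was 0.0426 (adjusted p = 0.303 in limma), with 5.94, 6.72 and 6.92. The letter of the lowest array was the same in both groups for 9 of the 16 members, and for 43.9% of all probe sets. Sample C was the lowest array of both groups for 5 of the 16 members, and for 12.1% of all probe sets, a share computed for this letter only. These 5 were a probe set each of Matr3, Optn and Vapb and 2 of Tardbp. The shared lowest letter was A for Sqstm1 1371221_at, and B for Sqstm1 1371353_at, Sqstm1 1389381_at and Vapb 1390257_at.

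**Figure D3:**
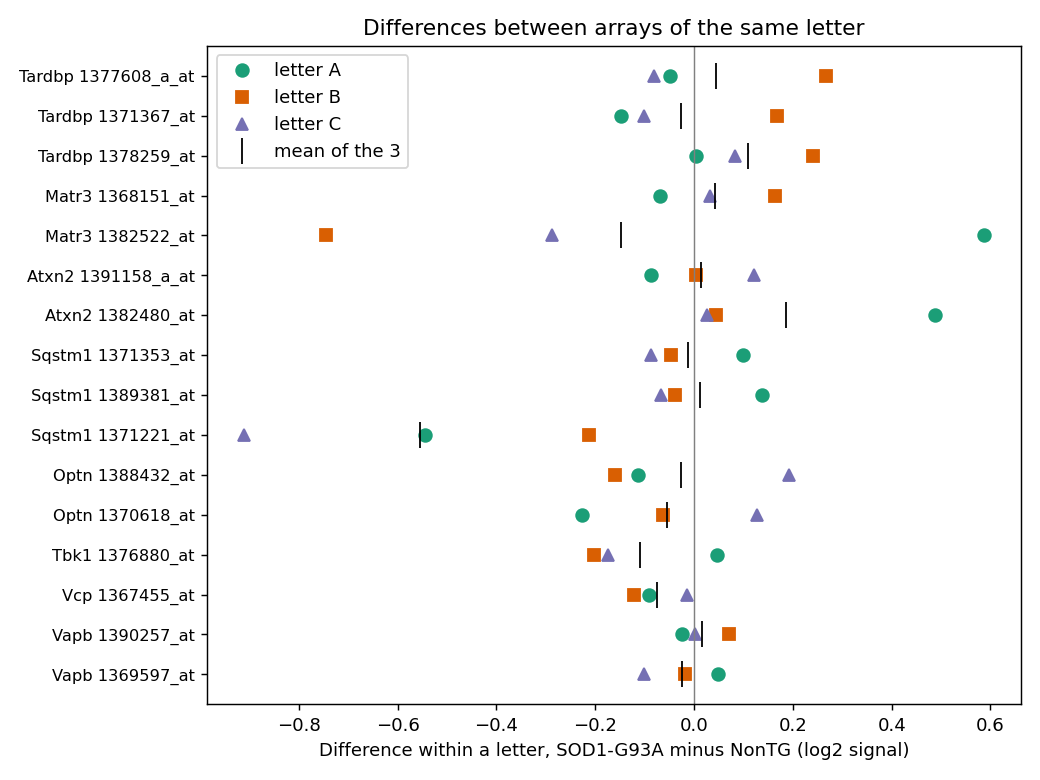
Differences between the SOD1-G93A and the NonTG array of the same letter for the 16 tested probe sets (symbols, log2 signal), with their mean as a black bar. In 12 of the 16 rows the symbols lie on both sides of 0, and the widest spread is that of Matr3 1382522_at, at 0.59 for A and -0.74 for B.

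The genes around the 8 were followed in 7 lists, each gene by its brightest tested probe set. Limma called 0 genes of any list at an adjusted p of 0.05, as among all 10473 genes (0%). At an unadjusted p below 0.05 there were 4 entries, for 3 genes, since Taf15 stands in both the ALS list and the RNA-binding list. In the 181 genes of the lists, the groups did not overlap for 8 with SOD1-G93A higher and 8 with it lower, beside 3.73% and 3.79% of all genes. Over all genes 2.64% had an unadjusted p below 0.05, the median difference was 0.0030 and 51% lay above 0.

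Of 40 other ALS-linked genes 27 were tested, 12 above and 15 below 0, with a median of -0.00064. Taf15, an RNA-binding protein that works in transcription, gave 251.2, 185.9 and 237.4 in SOD1-G93A against 289.6, 298.1 and 325.4 in NonTG. All SOD1-G93A signals lay below all NonTG signals, and the difference was -0.45 (SE 0.17, unadjusted p of 0.024 and adjusted p = 0.9997 in limma). Cfap410, a protein of cilia, differed by 0.33 (SE 0.22) with overlap, and by 0.15 without NonTG C, 0.20 without SOD1-G93A B and 0.50 without NonTG B. Fig4, a phosphoinositide phosphatase, differed by 0.14 (SE 0.10) and Nek1, a kinase of DNA repair and cilia, by -0.17 (SE 0.12), both without overlap.

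Nuclear RNA-binding proteins of the kind of TDP-43 and matrin 3 had 20 of 30 tested members above 0 and a median of 0.056, which was 0.025 with the probe sets of each gene averaged. Hnrnpm, a splicing regulator, gave 1963, 1989 and 2020 in SOD1-G93A against 1829, 1592 and 1651 in NonTG. All SOD1-G93A signals were higher, by 0.24 (SE 0.086, unadjusted p of 0.0212 and adjusted p = 0.9997 in limma). Celf2 differed by 0.24 (SE 0.13), and by 0.15 to 0.23 in its other 3 probe sets, and Hnrnph1 by 0.12 (SE 0.077), both with overlap. Celf2 was at 0.079 without SOD1-G93A C and Hnrnph1 at 0.067 without NonTG B. Taf15, at -0.45, was the lowest of this list too. The list of stress granule proteins with ataxin 2 had 16 of 24 below 0 and a median of -0.036. It also counted Ncoa4 (-0.031) and Eif2ak3 (-0.041), which are not core stress granule proteins. Lsm12, a partner of ataxin 2, differed by 0.25 (SE 0.14), Eif4e, which binds the cap of mRNA, by -0.12 (SE 0.071), Pabpc4 by -0.11 (SE 0.081) and G3bp1, a core protein of stress granules, by 0.11 (SE 0.089). Lsm12 was at 0.11 without SOD1-G93A C, and its other 2 probe sets were at 0.10 and 0.090. Pabpc4 was at -0.073 without NonTG C and at -0.081 in its second probe set. The second probe sets of Eif4e (0.084) and G3bp1 (-0.034) had the other sign.

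Autophagy receptors and their machinery split evenly, 15 of 30 above 0, with a median of -0.0070. Atg16l1, which places Lc3 on membranes, differed by -0.22 (SE 0.16), Atg9a, a lipid scramblase, by 0.15 (SE 0.11), Lamp2 of the lysosomal membrane by 0.11 (SE 0.10) and Becn1 by -0.081 (SE 0.078), all with overlap. Leaving out single arrays moved these values. Atg16l1 was at -0.095 without SOD1-G93A C and -0.12 without NonTG C, and Atg9a at 0.049 without SOD1-G93A B. Lamp2 ranged from 0.056 without SOD1-G93A B to 0.22 without SOD1-G93A A, and Becn1 was at -0.041 without NonTG C. Partners of Tbk1 in signalling had 12 of 17 below 0 and a median of -0.063. Irf3, its substrate, differed by -0.16 (SE 0.13), and by -0.034 without SOD1-G93A C and -0.26 without SOD1-G93A B. Irf7, a related factor, differed by -0.17 (SE 0.19), and by -0.041 without SOD1-G93A A, -0.32 without NonTG A and 0.031 without NonTG B. Tnip1, which restrains NF-kB, differed by -0.12 (SE 0.12), and by -0.079 without SOD1-G93A A, -0.20 without NonTG A and -0.014 without NonTG B. Tank, a scaffold of the kinase, differed by -0.14 (SE 0.12) without overlap.

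Cofactors of Vcp and proteins of degradation from the endoplasmic reticulum had 15 of 28 above 0 and a median of 0.0073. Svip, a small inhibitor of this degradation that binds Vcp, gave 892.1, 925.6 and 893.8 in SOD1-G93A against 701, 781.9 and 717.6 in NonTG. All SOD1-G93A signals were higher, by 0.30 (SE 0.098, interval 0.082 to 0.52, unadjusted p of 0.0125 and adjusted p = 0.9997 in limma). Syvn1, a ubiquitin ligase, differed by -0.14 (SE 0.12), Faf1 by -0.12 (SE 0.12) and Selenos, a membrane anchor of Vcp, by -0.11 (SE 0.085), all with overlap. Faf1 was at -0.022 without NonTG A and -0.18 without NonTG B, and Syvn1 at -0.063 without NonTG C and -0.085 without SOD1-G93A B. Selenos was at -0.046 without SOD1-G93A B and -0.17 without SOD1-G93A A. Partners of Vapb at membrane contacts had 17 of 30 above 0 and a median of 0.019 (0.0094 with the probe sets of each gene averaged), with Sacm1l, a phosphatase of PI4P, at -0.18 (SE 0.11) and Snx2 at 0.16 (SE 0.097). Rab3gap2 differed by 0.16 (SE 0.11) and Esyt1, a lipid transfer protein, by -0.33 (SE 0.24). Sacm1l was at -0.10 without NonTG A and at the same rounded value without SOD1-G93A C, Snx2 at 0.096 without SOD1-G93A C and 0.26 without SOD1-G93A B, and Esyt1 at -0.18 without SOD1-G93A A.

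**Figure D4:**
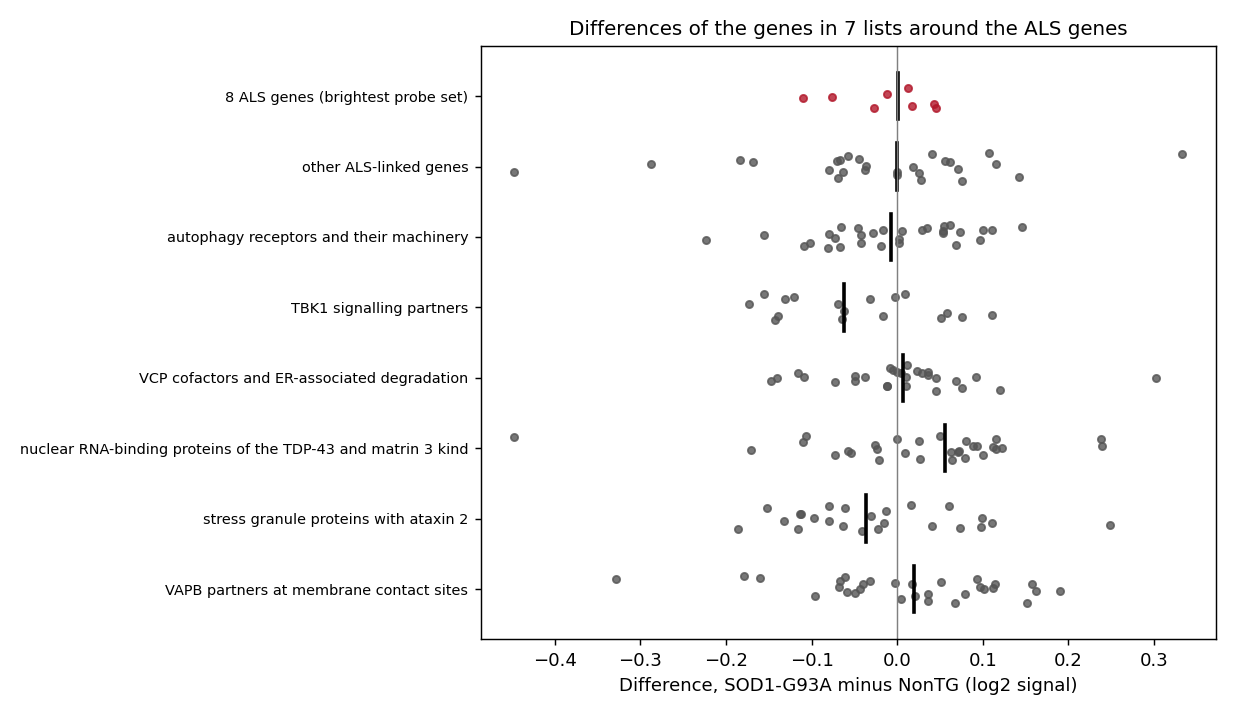
Differences between SOD1-G93A and NonTG (log2 signal) of the 8 ALS genes by their brightest probe set (top, red) and of the tested genes of 7 related lists (grey), with the median of each as a black bar. The 8 genes lie between -0.11 and 0.045, and the points farthest from 0 in the lists are Taf15 (-0.45), Cfap410 (0.33), Esyt1 (-0.33) and Svip (0.30).

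The genes whose log2 signal followed each member most closely over the 6 arrays were named by Pearson's r, as a description, since the highest of 10473 values is high by choice. For Tardbp these were Pold1 (0.994), a DNA polymerase subunit, and Phf19 (0.989), and for Matr3 they were Zmpste24 (0.995), a protease that matures lamin A, and Rbmx (0.992), a nuclear RNA-binding protein. Atxn2 was followed by Slc39a1 (0.985) and Nmt2 (0.971), Sqstm1 by Esyt2 (0.995) and Dnajb4 (0.989), and Optn by Plxnb2 (0.993) and Pex11a (0.989). Tbk1 was followed by Pctp (0.993) and Mfap3 (0.991), Vcp by Eef2k (0.968) and Vdac3 (0.966), and Vapb by Lsp1 (0.989) and Plpp4 (0.984). These genes share their arrays and scaling with the members.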

How the data were processed

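Total RNA (5 ug per sample, per the labels) was hybridised to 6 Affymetrix Rat Genome arrays. The deposited values are intensity values on a linear scale, 1 per probe set and array, which the authors computed using MAS5 (GCOS 1.4) according to the labels, per the submitters' processing notes. GC-RMA and log values, named in the design text of the series, are not what the linear table holds. Of 31099 probe sets, 57 controls were left out. Here values were log2-transformed without a pseudocount, and those probe sets whose mean log2 value did not exceed the 40th percentile (66.7 in signal) were set aside as dim, which left 18625. The groups were compared by a two-sided test in limma 3.58.1 (R 4.3.3), using lmFit and a trended eBayes, and p-values were adjusted by Benjamini-Hochberg over these 18625. The fit was run on simulated data with independent noise and changes larger than the differences of the tested members. That run does not show the sensitivity for small changes. The number of arrays limits the precision.

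By Entrez identifier all 8 members matched the RefSeq gene table, and 0 probe sets with several symbols held a member. The members and lists were chosen with earlier results of these data known. Named genes were all members, the 4 genes with the smallest p of each list of related genes, and the 2 most alike by r. Sod1 and Vapa were added. Of the cell type markers, the tested oligodendrocyte ones, all those of fibroblasts and meninges and the astrocyte marker Slc1a2 were named. The plan had been to name the 2 brightest of each list. The labels do not state that the letters A, B and C pair the arrays. The deviations of same-letter arrays from their group means correlated at 0.30, 0.25 and 0.20, against -0.28 to 0.025 for different letters. Deviations from a group mean cancel out within the group, so these correlations depend on each other and do not establish a pairing. Alternatives were other filters, quantile normalization, a pseudocount of 32, no trend, array weights, the letter as a block, leaving out each array, and the mean over the probe sets of a gene.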

Additional observations from a re-analysis of the deposited data

How the results depend on the processing

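Limma called 0 of the members and 0 of all probe sets under each of the 14 alternatives, and 0 of the 221 recomputed member values had an unadjusted p below 0.05. With the letter as a replicate block the counts were again 0, and the block changed no call. The median difference of the tested members, -0.018, lay between -0.063 and 0.029 when 1 array was left out. Under the other alternatives it lay between -0.030 and -0.0046. It rose above 0, to 0.029 and 0.023, when the array dropped was NonTG A or SOD1-G93A C respectively. Each shift was less than 0.059, the pooled SD of the members' median between arrays of a group. Dropping 1 of 3 arrays moves a group mean by less than this SD almost by construction, so that comparison does not show stability. Of 221 recomputed differences of single members, 199 kept their direction. The signs that turned belonged to 11 probe sets with differences between -0.15 and 0.045, and the cause was not tested. Under quantile normalization Sqstm1 1371353_at was at 0.027. Leaving out 1 array gave ranges of -0.85 to -0.27 for Sqstm1 1371221_at, 0.047 to 0.19 for Tardbp 1378259_at and 0.031 to 0.30 for Atxn2 1382480_at, whose signs held, and of -0.033 to 0.13 for Tardbp 1377608_a_at, -0.12 to 0.11 for Tardbp 1371367_at, -0.011 to 0.073 for Matr3 1368151_at, -0.38 to 0.19 for Matr3 1382522_at, -0.016 to 0.054 for Atxn2 1391158_a_at, -0.071 to 0.032 for Sqstm1 1371353_at, -0.067 to 0.078 for Sqstm1 1389381_at, -0.15 to 0.077 for Optn 1388432_at, -0.22 to 0.037 for Optn 1370618_at, -0.062 to 0.071 for Vapb 1390257_at and -0.10 to 0.078 for Vapb 1369597_at. With the probe sets of a gene averaged, Matr3 was at -0.053 and Vapb at -0.0031, opposite in sign to their brightest probe sets. Limma's adjusted p of the members ranged from 0.817 to 1 over all alternatives. In the lists, 0 genes passed in either form, and 375 of 376 recomputed values of the 27 named genes kept their direction. These were added after the data were seen, and the exception was Irf7, at 0.031 without NonTG B and down to -0.32 with another array left out. Signals near the dim level limit Matr3 1382522_at and 2 of the Sqstm1 probe sets.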
